A study of Homo sapiens with 8 samples.

Results

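The guanylate-binding protein (GBP) gene cluster was described through its H3K27ac, a histone mark of active promoters and enhancers, in clones of CFPAC1, an established cell line from a human pancreatic ductal adenocarcinoma. The cluster was taken as every deposited peak overlapping a 440 kb stretch of chromosome 1 (GRCh38) that holds GBP1 to GBP7. This gave 13 of the 31961 peaks of the series, of which 12 could be assigned to a GBP gene by the authors' annotation or by overlap with the RefSeq gene. All the clones had been infected with the lentiCRIPSv2 plasmid and isolated by dilution. Control clones 1 and 4 carried that plasmid with no guide named, and IRF1-guide clones 11 and 13 carried it with wt Cas9 and a guide to IRF1, a transcription factor gene induced by interferons. Each clone gave 1 untreated library and 1 after 2 hours of hIFNb, taken to be human interferon beta, which makes 4 groups of 2. Each clone is a single-cell-derived line, and the labels do not state whether the IRF1-guide clones lack the IRF1 protein. The question behind the comparisons is which part of the H3K27ac response to interferon differs in clones with a guide against IRF1.

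GBPs are large GTPases that interferons induce strongly. They assemble on the membranes of bacteria and of vacuoles that hold microbes, and help to open them to cytosolic defence, including caspase-4 and the inflammasomes. Type I interferon acts through the receptor chains IFNAR1 and IFNAR2 and the kinases JAK1 and TYK2 on a complex that includes STAT2 and IRF9 and binds interferon-stimulated response elements, and IRF1 binds a closely related element.

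The promoter sequences are shown first because the GBP genes are paralogs whose promoters share interferon-type elements to different degrees. RefSeq promoter windows (GRCh38.p14, 250 bases before to 50 after the start site) were matched for 5 of the 7 genes, GBP1, GBP3, GBP4, GBP6 and GBP7, and not for GBP2 and GBP5. Each line runs 5′ to 3′ on the gene's own strand, from 140 bases before the start site to 12 bases from it. Capitals mark matches on either strand to GAAA, any 2 bases and GAAA, the core of the interferon-stimulated response element, or to TTCNNNGAA, the core of the gamma-activated sequence bound by STAT dimers.
GBP1 (chr1:89065197-89065348, minus strand): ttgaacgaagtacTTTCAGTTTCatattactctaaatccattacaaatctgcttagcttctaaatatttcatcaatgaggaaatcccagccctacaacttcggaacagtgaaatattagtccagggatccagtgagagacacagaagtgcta
GBP3 (chr1:89022855-89023006, minus strand): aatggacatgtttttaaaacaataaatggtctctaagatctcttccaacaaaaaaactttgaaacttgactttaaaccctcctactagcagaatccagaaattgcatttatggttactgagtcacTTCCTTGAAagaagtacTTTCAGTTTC
GBP4 (chr1:89198931-89199082, minus strand): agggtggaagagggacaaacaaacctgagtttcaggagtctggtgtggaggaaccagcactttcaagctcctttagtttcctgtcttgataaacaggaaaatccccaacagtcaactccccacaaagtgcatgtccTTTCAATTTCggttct
GBP6 (chr1:89363919-89364070, plus strand): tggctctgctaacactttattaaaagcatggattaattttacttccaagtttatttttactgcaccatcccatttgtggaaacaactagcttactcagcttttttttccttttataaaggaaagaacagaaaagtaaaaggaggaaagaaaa
GBP7 (chr1:89175992-89176143, minus strand): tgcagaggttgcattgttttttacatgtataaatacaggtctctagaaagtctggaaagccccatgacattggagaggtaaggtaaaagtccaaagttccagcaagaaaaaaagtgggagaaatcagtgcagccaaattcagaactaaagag

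The response-element core matched in 3 of the 5 whole windows, GBP1, GBP3 and GBP4, against 3.57% of the 35116 RefSeq promoters of this length. The gamma-activated core matched in 1 of the 5, GBP3, against 7.66% of all. GBP1 and GBP3 carried the same match, TTTCAGTTTC, inside a shared run of 19 bases, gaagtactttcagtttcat, the longest run shared by any pair of these windows. It lay 127 bases before the RefSeq start of GBP1 and 2 bases past that of GBP3. The match in GBP4, TTTCAATTTC, began 4 bases before its start. No match in the GBP6 or GBP7 window says only that these letters are not in it. The same holds for the gamma-activated core in the GBP1 and GBP4 windows. Other forms of either element were not searched for. GBP1 and GBP7 also shared a run of 13 bases, tcatattactcta, which in GBP7 lies outside the stretch shown.

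The 13 peaks covered 89.5 kb of the window, with a median width of 6.37 kb against 3.55 kb over all peaks. Of the 7 genes, 6 had a peak at the start site, and no peak overlapped the body of GBP7 (chromosome 1, 89131742 to 89176003), which the table names only as a neighbour of the GBP2 and GBP4 peaks. The promoter peaks of GBP3 (89020366 to 89026733), GBP1 (89063113 to 89073598), GBP5 (89271529 to 89279849) and GBP6 (89355132 to 89365473) held the start sites named by the authors. The peak of GBP2 (89124476 to 89131382) covered the end of the RefSeq gene at 89126114, where this minus-strand gene starts. The authors named it for the long non-coding RNA LOC105378842, and named the GBP4 peak (89197716 to 89203274) for LOC107985076, whose start it also held. The signals of each gene and its overlapping non-coding RNA cannot be told apart. The same holds for the GBP1 peak, which also overlapped the RefSeq entry LOC105378841, and for the GBP5 peak, which overlapped LOC100421401.

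The other 7 peaks lay between the GBP genes or at neighbouring ones. A peak at the pseudogene LOC729930 (89281580 to 89293547) lay 8.72 kb upstream of GBP5. A wide peak (89302781 to 89315325) and a narrow peak (89298905 to 89300302) lay 48.7 and 63.8 kb from the GBP6 start. A peak at the pseudogene GBP1P1 (89404454 to 89409796) lay 40.4 kb beyond the GBP6 start, and a small peak (89088019 to 89089638) 22.8 kb from the GBP1 start. The LOC729930, wide and narrow peaks also overlapped LOC100421401, and the small peak LOC105378841. At the edge of the window, a peak (88991213 to 88995859) held the starts of KYAT3, a kynurenine aminotransferase gene, and RBMXL1, and reached GBP3 only as its downstream neighbour at 27.007 kb. A peak in the bodies of both those genes (88982297 to 88986336) had no GBP as its neighbour and is the member left unassigned.

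**Figure D1:**
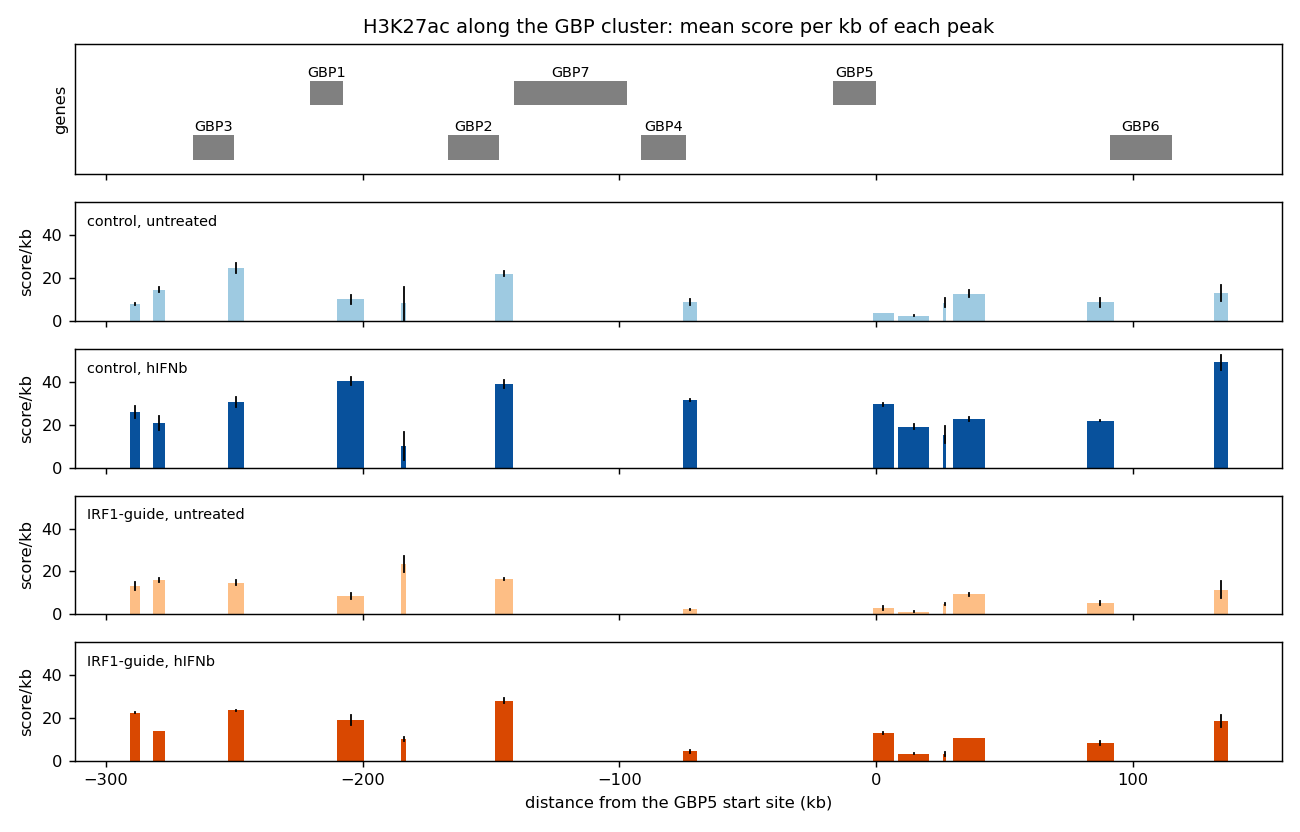
Mean score per kb of each of the 13 peaks (bars, n = 2 libraries, lines from the lower to the higher library) against the distance from the GBP5 start site in kb, in each of the 4 groups, with the bodies of GBP1 to GBP7 above. In control clones with hIFNb the GBP1P1 peak was the highest, at 49.1 per kb, and in IRF1-guide clones with hIFNb the GBP4 peak stood at 4.41 per kb.

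Values are scores, the read counts per peak that the authors normalised and rounded to whole numbers. The score totals were similar, from 3277561 to 3460390 per library. In 6 of the 8 libraries 10 to 30 of the whole numbers up to 100 were never used, which puts the reads in peaks of those 6 at an estimated 2331109 to 3072730. The 2 without such gaps were untreated control clones 1 and 4, which form a whole group. The part of this in comparisons with that group was not tested. Start sites of 7 of 8 ductal epithelial markers lay in peaks (KRT19 and EPCAM among them, with none at CFTR), and 2 of 9 markers of other cell types, PECAM1 and COL1A1. All contrasts were fitted on log2(score + 1) over the 31961 peaks in limma, and calls were made below an adjusted p of 0.05. The main model compares group means, and a second takes the clone as a block, setting each treated library against the untreated one of its own clone. In the group-means model no marker peak passed in any of the 6 contrasts, nor did ACTB and GAPDH. With the block, hIFNb moved COL1A1 by 0.58 ± 0.17 over all clones (SE, limma, adjusted p = 0.00792) and 1.09 ± 0.24 in control clones (adjusted p = 0.00103), and PECAM1 by -0.31 ± 0.09 (adjusted p = 0.00601) and -0.43 ± 0.12 (adjusted p = 0.00923). EPCAM rose over all clones (0.37 ± 0.12, adjusted p = 0.0156), and in control clones SOX9 rose (0.36 ± 0.12, adjusted p = 0.0268) and 1 of 2 KRT8 peaks fell (-0.28 ± 0.09, adjusted p = 0.0292). The part of these changes in the results below was not tested. Scores average over the cells of a clone, so that fewer cells with the mark and less mark per cell cannot be told apart.

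H3K27ac rose across most of the cluster after 2 hours of hIFNb. Over all clones 9 of the 13 peaks rose and none fell, where 6.55% of all peaks rose and 2.58% fell. The median log2 change was 0.98 in the cluster and -0.00 over all peaks. The summed score of the 13 peaks reached 1070 and 890 in untreated control clones 1 and 4, and 2620 and 2487 with hIFNb. In IRF1-guide clones 11 and 13 it was 673 and 837 without, and 1168 and 1256 with hIFNb. The sums of control and IRF1-guide clones were thus closer to each other before treatment than after it. In 5 of the 13 peaks the 4 treated libraries lay above the 4 untreated ones, against 7.22% of all peaks, and in none below them, against 5.15%.

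**Figure D2:**
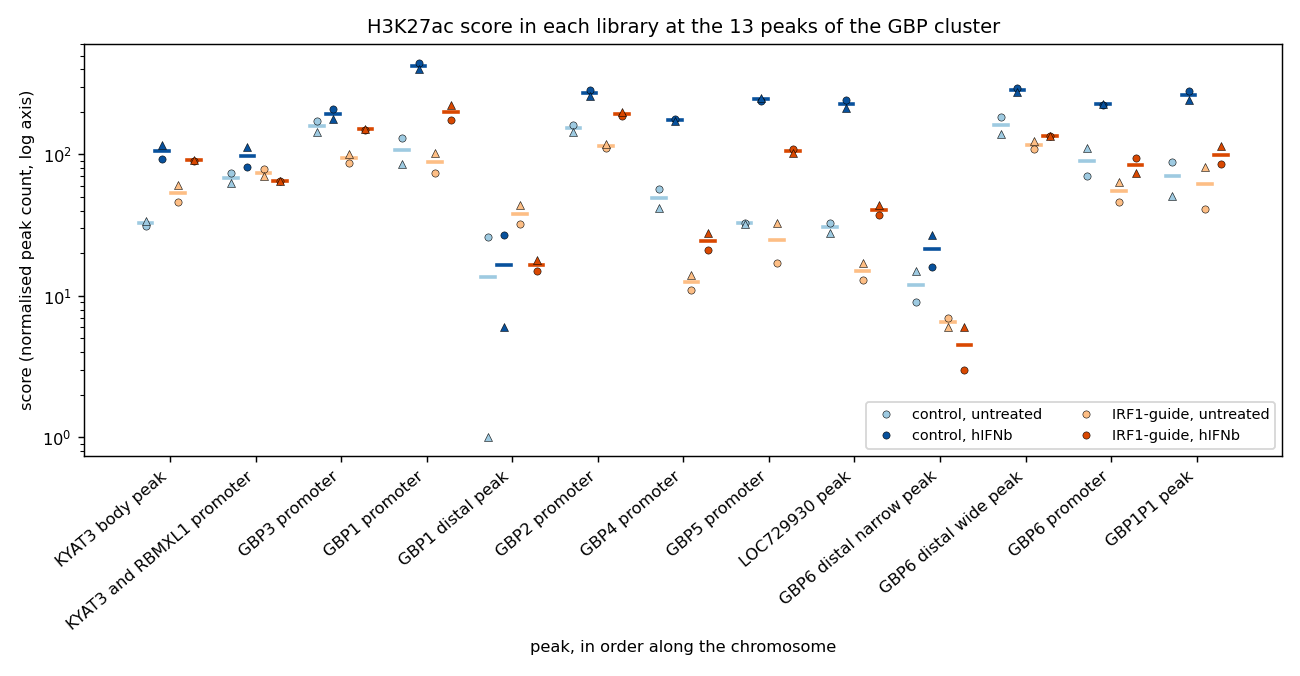
Score in each library (log axis) at the 13 peaks, in order along the chromosome, by group. Circles are clones 1 and 11, triangles are clones 4 and 13, and bars are group means. At the GBP1 promoter the control clones with hIFNb stood at 445 and 404, above the other 6 libraries.

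GBP5, which promotes inflammasome assembly and restricts viral envelope proteins, had the largest response among the promoters. Its promoter scored 33 and 32 in untreated and 240 and 252 in treated control clones 1 and 4. In IRF1-guide clones 11 and 13 it scored 17 and 33 without and 110 and 103 with hIFNb. Treated and untreated libraries did not overlap in either genotype, and the treated IRF1-guide libraries lay below the treated controls. Across the 4 clones the log2 rise was 2.50 ± 0.21 (SE, limma, adjusted p = 0.000143), a fold of 5.66. The LOC729930 peak next to it scored 33 and 28 in untreated and 244 and 214 in treated control clones. In IRF1-guide clones it scored 13 and 17 untreated and 37 and 44 treated, so that their treated libraries stood just above the untreated controls. It rose by 2.13 ± 0.19 over all clones (adjusted p = 0.000194).

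GBP1, the member best known for coating bacteria, had the highest mean score in the cluster. Its promoter scored 130 and 86 in untreated control clones 1 and 4, and 445 and 404 in the same clones with hIFNb. In IRF1-guide clones 11 and 13 the scores were 74 and 102 untreated and 176 and 225 treated. Untreated clones of both genotypes overlapped, and the treated IRF1-guide libraries lay between untreated and treated controls. The rise over all clones was 1.59 ± 0.18 (SE, limma, adjusted p = 0.000572), a fold of 3.01. GBP2, a relative that is anchored to membranes by a geranylgeranyl lipid, scored 162 and 144 in untreated and 284 and 257 in treated control clones, and 111 and 118 in untreated and 187 and 201 in treated IRF1-guide clones. It moved by nearly the same amount in each clone (0.81, 0.83, 0.75 and 0.76 on the log2 scale in clones 1, 4, 11 and 13). Over all clones it rose by 0.79 ± 0.13 (adjusted p = 0.00484).

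GBP4, a member that lacks the lipid anchor of GBP1 and GBP2, had lower scores in both IRF1-guide clones than in both control clones, with and without hIFNb. Its promoter scored 57 and 42 in untreated and 179 and 172 in treated control clones. In IRF1-guide clones 11 and 13 it scored 11 and 14 untreated and 21 and 28 treated, so that treated IRF1-guide libraries lay below untreated controls. Over all clones it rose by 1.37 ± 0.21 (SE, limma, adjusted p = 0.00309), although treated and untreated libraries overlapped across genotypes. The change per clone was 1.63 and 2.01 in control clones 1 and 4 and 0.87 and 0.95 in IRF1-guide clones 11 and 13.

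GBP6, at the far end of the cluster, scored 70 and 111 at its promoter in untreated and 225 and 228 in treated control clones, and 46 and 64 in untreated and 95 and 74 in treated IRF1-guide clones. Treated IRF1-guide libraries overlapped the untreated controls. Over all clones it rose by 0.98 ± 0.20 (SE, limma, adjusted p = 0.0128, or 0.0558 without IRF1-guide clone 11 with hIFNb). The GBP1P1 peak beyond it scored 89 and 51 in untreated and 282 and 243 in treated control clones, and 41 and 82 in untreated and 85 and 114 in treated IRF1-guide clones. Its treated controls stood apart from the other 6 libraries, and it rose by 1.35 ± 0.25 (adjusted p = 0.00914). The wide peak between LOC729930 and GBP6 scored 183 and 139 in untreated and 295 and 275 in treated control clones, and 109 and 125 in untreated and 135 and 134 in treated IRF1-guide clones. Its rise of 0.52 ± 0.14 (adjusted p = 0.0496) did not hold when any of the 8 libraries was dropped (limma, adjusted p = 0.0591 to 0.159). The narrow peak beside it was faint, with scores of 3 to 27 in the 8 libraries, and did not pass (0.14 ± 0.35, adjusted p = 0.834).

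GBP3, which joins GBP1 on cytosolic bacteria, had the smallest change among the GBP promoters over all clones. It scored 173 and 144 in untreated and 209 and 179 in treated control clones, and 87 and 101 in untreated and 149 and 152 in treated IRF1-guide clones. In both genotypes the treated libraries lay above the untreated ones, and the untreated control clones already stood near the treated IRF1-guide level. The change of 0.48 ± 0.14 over all clones did not pass (SE, limma, adjusted p = 0.0618), and passed with the clone as a block (adjusted p = 0.000516). With that block 10 of the 13 peaks rose over all clones and none fell, where 16.6% of all peaks rose and 15.9% fell.

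At the edge of the cluster the KYAT3 and RBMXL1 promoter scored 74 and 63 in untreated and 81 and 113 in treated control clones, and 79 and 70 in untreated and 65 and 65 in treated IRF1-guide clones. Over all clones its change did not pass (0.14 ± 0.17, SE, limma, adjusted p = 0.64). The peak in the bodies of KYAT3 and RBMXL1, 6.29 kb from the RBMXL1 start, scored 31 and 34 in untreated and 93 and 117 in treated control clones, and 46 and 61 in untreated and 90 and 92 in treated IRF1-guide clones. Both genotypes reached about the same treated level from different untreated levels, and the peak rose by 1.21 ± 0.18 (adjusted p = 0.00262). The small peak beyond GBP1 scored 26 and 1 in untreated and 27 and 6 in treated control clones, and 32 and 44 in untreated and 15 and 18 in treated IRF1-guide clones. Its control clones stood far apart from each other, and it did not pass (-0.11 ± 0.71, adjusted p = 0.943). Outside the window, none of the 4 peaks at the starts of the neighbours GTF2B, PKN2, LRRC8B and ZNF326 passed over all clones, with log2 changes from -0.06 at ZNF326 to 0.31 at GTF2B.

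In control clones alone 9 of the 13 peaks rose and none fell, where 4.07% of all peaks rose and 0.676% fell. With the block it was also 9 and none, where 13.4% rose and 11.3% fell. In 12 of the 13 the treated libraries lay above the untreated ones, against 25.7% of all peaks, and in none below them, against 23%. The largest rises were 2.88 ± 0.30 at the GBP5 promoter (SE, limma, adjusted p = 0.00118) and 2.87 ± 0.27 at the LOC729930 peak (adjusted p = 0.000939), folds of 7.37 and 7.31. GBP1 rose by 1.99 ± 0.25 (adjusted p = 0.00266), GBP1P1 by 1.94 ± 0.36 (adjusted p = 0.0137), GBP4 by 1.82 ± 0.29 (adjusted p = 0.0075) and GBP6 by 1.35 ± 0.28 (adjusted p = 0.0223). The KYAT3 body peak rose by 1.65 ± 0.25 (adjusted p = 0.00601), the wide peak by 0.83 ± 0.20 (adjusted p = 0.0448) and GBP2 by 0.82 ± 0.18 (adjusted p = 0.0327). GBP3 changed by 0.29 ± 0.20 (adjusted p = 0.476).

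Several of these calls were lost when 1 library was dropped. The log2 change stayed at 1.61 to 2.04 at GBP4, 1.55 to 2.34 at GBP1P1, 1.02 to 1.68 at GBP6, 1.49 to 1.82 at the KYAT3 body peak and 0.73 to 0.90 at GBP2 over the 8 such fits. The calls at GBP1, GBP5 and LOC729930 held in limma whichever 1 of the 8 libraries was dropped. Without control clone 4 with hIFNb the adjusted p was 0.0596 at the KYAT3 body peak, 0.0598 at GBP4, 0.0697 at GBP1P1, 0.104 at GBP2 and 0.111 at GBP6. With treated control clone 1 dropped instead it was 0.0885 at GBP4, 0.119 at GBP1P1, 0.133 at GBP6 and 0.187 at GBP2. Without control clone 4 untreated it was 0.0681 at GBP4, 0.099 at GBP1P1 and 0.178 at GBP2, and without control clone 1 untreated 0.115 at GBP2 and 0.167 at GBP6. Without IRF1-guide clones 11 or 13 with hIFNb, which enter only the shared spread, it was 0.0509 and 0.0512 at GBP2. The wide peak was lost in each case (0.0551 to 0.255). The count of 9 came to 3 without control clone 4 with hIFNb, 4 without control clone 1 with hIFNb and 5 without control clone 4 untreated. Calls over the whole table went from 1516 to 402, 206 and 496 peaks in the same fits.

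In IRF1-guide clones alone the group-means model called 2 of the 13 peaks as rises and none as falls, where 1.2% of all peaks rose and 0.025% fell. The model with the clone as a block called 9 rises and no fall, where 7.44% rose and 6.64% fell. Both models called the GBP5 promoter, with a rise of 2.12 ± 0.30 (SE, limma, adjusted p = 0.00794), and the LOC729930 peak, with 1.38 ± 0.27 (adjusted p = 0.0398). In the group-means model the first was lost without clone 11 or 13 with hIFNb (adjusted p = 0.0963 and 0.0644) and the second without any 1 library (0.0602 to 0.211), with counts from 0 to 2. GBP1 changed by 1.19 ± 0.25 (adjusted p = 0.0595, or 6.92e-07 with the block). GBP4 changed by 0.91 ± 0.29 (0.227, or 0.014 with the block), GBP2 by 0.76 ± 0.18 (0.0988, or 0.000207) and GBP1P1 by 0.75 ± 0.36 (0.413, or 0.00565). GBP3 changed by 0.68 ± 0.20 (0.191, or 0.00173), GBP6 by 0.62 ± 0.28 (0.391, or 0.0315) and the KYAT3 body peak by 0.77 ± 0.25 (0.238, or 0.0117). In 10 of the 13 peaks the treated libraries lay above the untreated ones, against 22.5% of all peaks, and in 2, the GBP1 distal peak and the KYAT3 and RBMXL1 promoter, below them, against 20.1%.

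**Figure D3:**
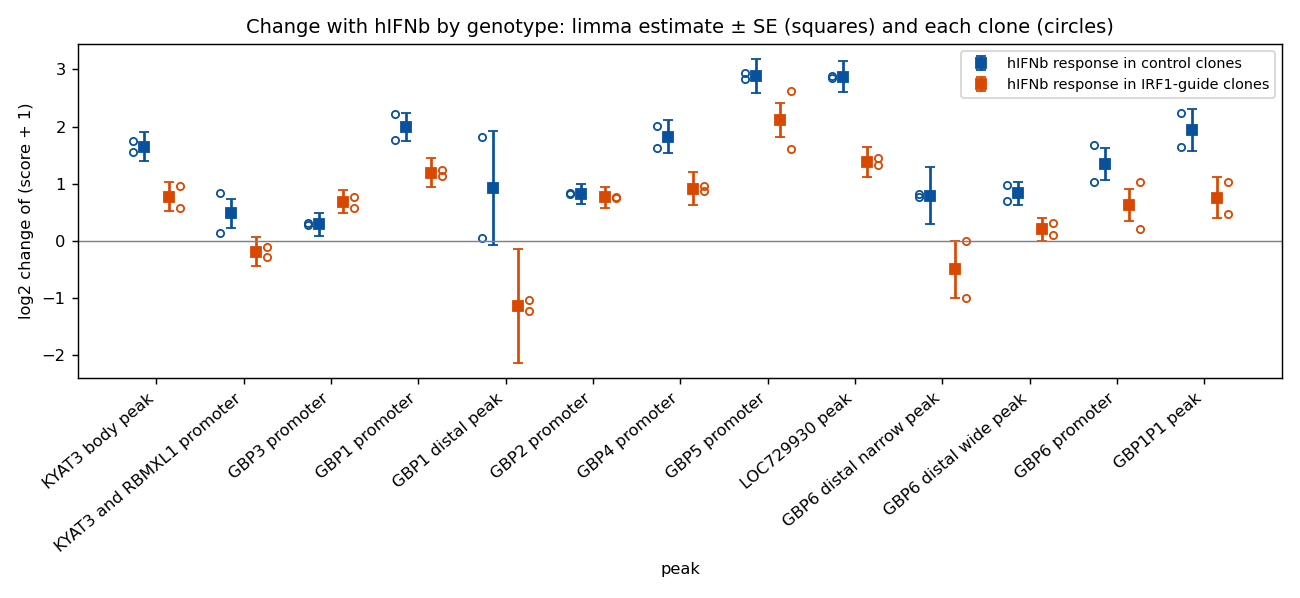
Log2 change of (score + 1) with hIFNb at each of the 13 peaks, as the limma estimate ± SE in control and IRF1-guide clones (squares) and in each clone (circles). At GBP2 the estimates were 0.82 and 0.76, and at LOC729930 2.87 and 1.38.

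The estimated response was smaller in IRF1-guide than in control clones at 12 of the 13 peaks, as at 49.9% of all peaks. The median log2 difference over the 13 was -0.81, where that over all peaks was 0.00. The group-means model called this difference at no cluster peak and at 0% of all peaks, and 4 cluster peaks had an unadjusted p under 0.05, as did 1258 of the 31961. With the clone as a block it was called at 2 of the 13, where 0.657% of all peaks fell. These were the LOC729930 peak, with -1.49 ± 0.33 (SE, limma, adjusted p = 0.0257), and the GBP1P1 peak, with -1.19 ± 0.26 (adjusted p = 0.0213). GBP1 had a difference of -0.81 ± 0.20 (adjusted p = 0.0521 with the block). The promoters spread widely: the difference was -0.91 at GBP4, -0.76 at GBP5 and -0.73 at GBP6 (adjusted p = 0.271, 0.297 and 0.253 with the block). At GBP2 it was -0.06, with a 95% interval of -0.64 to 0.51 in the group-means model, and at GBP3 0.39, with an interval of -0.25 to 1.02, the only member whose estimate was larger in IRF1-guide clones.

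Without hIFNb, no peak of the cluster or of the table was called between the genotypes, so that 0% of all peaks passed in limma, and 7 of the 13 cluster peaks had an unadjusted p under 0.05, as did 3851 of all. GBP4 had the largest log2 difference among the GBP promoters, at -1.90 ± 0.29 (SE, limma, adjusted p = 0.0617), a fold of 0.269 between IRF1-guide and control clones. LOC729930 differed by -0.98 ± 0.27 (adjusted p = 0.207), GBP3 by -0.75 ± 0.20 (adjusted p = 0.202) and GBP6 by -0.69 ± 0.28 (adjusted p = 0.368). GBP1 differed by -0.28 ± 0.25 (adjusted p = 0.709) and GBP5 by -0.44 ± 0.30 (adjusted p = 0.604), with overlapping libraries at both. In 7 of the 13 peaks the untreated IRF1-guide libraries lay below the untreated controls, against 22.5% of all peaks, and in 2, the KYAT3 body peak and the GBP1 distal peak, above them, against 18.1%.

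With hIFNb, 4 of the 13 peaks were lower in IRF1-guide than in control clones, where 2.19% of all peaks were, and none was higher, where 0.238% were. The difference was -2.80 ± 0.29 at GBP4 (SE, limma, adjusted p = 0.00606), a fold of 0.143. It was -2.47 ± 0.27 at LOC729930 (adjusted p = 0.00655), -1.42 ± 0.28 at the GBP6 promoter (adjusted p = 0.028) and -1.08 ± 0.20 at the wide peak (adjusted p = 0.0246). GBP1 (-1.09 ± 0.25, adjusted p = 0.0548), GBP5 (-1.20 ± 0.30, adjusted p = 0.0681) and GBP1P1 (-1.40 ± 0.36, adjusted p = 0.0719) did not pass, nor did GBP2 (-0.48 ± 0.18, adjusted p = 0.229) and GBP3 (-0.36 ± 0.20, adjusted p = 0.421). GBP1, GBP5 and GBP1P1 passed with only the treated groups in the fit (adjusted p = 0.0478, 0.0379 and 0.0371). In 12 of the 13 peaks the treated IRF1-guide libraries lay below the treated controls, against 24.2% of all peaks, and in none above them, against 19.6%. The small peak beyond GBP1 overlapped.

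These calls were also lost when 1 treated library was dropped. Without control clone 1 or control clone 4 with hIFNb limma called none of the 31961 peaks, and the adjusted p was 0.0979 and 0.0817 at both GBP4 and LOC729930. The GBP6 promoter had an adjusted p of 0.166 and 0.145 in those fits, and 0.0738 and 0.195 without IRF1-guide clones 11 and 13 with hIFNb. The wide peak had 0.168, 0.12, 0.095 and 0.14 in the same 4 fits, and 2 of the 4 calls were left without either treated IRF1-guide library. The log2 difference itself stayed between -3.00 and -2.61 at GBP4 and between -2.59 and -2.35 at LOC729930 with each of the 8 libraries left out.

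Per kb of peak, which accounts for peak width and for no other difference between genes, the order of the promoters differed between the groups. The order was not tested. In untreated control clones GBP3 (24.9 ± 3.22 score per kb, SD, n = 2) and GBP2 (22.2 ± 1.84) were highest and overlapped each other, followed by GBP1 (10.3 ± 2.97), GBP4 (8.90 ± 1.91) and GBP6 (8.75 ± 2.80), whose neighbours overlapped, and GBP5 (3.91 ± 0.08) below them. In control clones with hIFNb GBP1 (40.5 ± 2.76) and GBP2 (39.2 ± 2.76) were highest and overlapped, then GBP4 (31.6 ± 0.89), GBP3 (30.5 ± 3.33) and GBP5 (29.6 ± 1.02), of which neighbours overlapped, and GBP6 (21.9 ± 0.21) below. GBP5 thus went from well under GBP3 to its level. In IRF1-guide clones with hIFNb the order was GBP2 (28.1 ± 1.43), GBP3 (23.6 ± 0.33), GBP1 (19.1 ± 3.30), GBP5 (12.8 ± 0.59), GBP6 (8.17 ± 1.44) and GBP4 (4.41 ± 0.89), with no overlap between neighbours. In untreated IRF1-guide clones it was GBP2 (16.6 ± 0.72), GBP3 (14.8 ± 1.55), GBP1 (8.39 ± 1.89), GBP6 (5.32 ± 1.23), GBP5 (3.0 ± 1.36) and GBP4 (2.25 ± 0.38), of which only GBP5 and GBP4 overlapped. GBP4 held rank 3 in treated control clones and the last rank in both groups of IRF1-guide clones.

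The other genes of the pathway were read from 30 peaks at the start sites of a list of 39 genes, of which 28 had such a peak. Over all clones 14 of the 30 rose, beside 6.55% of all peaks, and none fell. In control clones 11 rose, beside 4.07%, and in IRF1-guide clones 9, beside 1.2%. In the blocked fit over all clones 18 rose and 1, IL18, fell (-0.37 ± 0.08, SE, limma, adjusted p = 0.00119), beside 16.6% and 15.9% of all peaks. With the same block 15 rose and none fell in control clones, beside 13.4% and 11.3% of all peaks. In IRF1-guide clones 14 rose and IL18 fell (-0.44 ± 0.12, limma, adjusted p = 0.0119), beside 7.44% and 6.64%. Of the signalling genes 9 of 13 peaks rose over all clones. STAT2 rose by 1.87 ± 0.23 in control and 1.69 ± 0.23 in IRF1-guide clones (SE, limma, adjusted p = 0.00241 and 0.00707). SOCS1, a feedback inhibitor of JAK kinases, rose by 2.77 ± 0.26 and 1.85 ± 0.26 (adjusted p = 0.000939 and 0.0082). MX1 and MX2, the other large interferon-inducible GTPase genes with a peak, both rose in each genotype, MX1 by 2.36 ± 0.24 and 3.27 ± 0.24 (adjusted p = 0.00108 and 0.000369).

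Of the prenylation and control genes, which include the prenyltransferase subunits that lipidate GBPs (FNTA, FNTB and PGGT1B) and the kinase gene PIM1, none of 6 peaks passed in limma in any of the 6 contrasts of the group-means model. With the block RCE1 (0.35 ± 0.13, adjusted p = 0.0319) and ICMT (0.35 ± 0.14, adjusted p = 0.0477), genes of enzymes that trim and methylate prenylated proteins, rose over all clones. Of the partners in defence 3 of 9 peaks rose over all clones in the group-means model, beside 6.55% of all peaks. AIM2, a cytosolic DNA sensor gene, rose by 2.38 ± 0.24 (SE, limma, adjusted p = 0.000286). TRIM21, an antibody receptor and ubiquitin ligase gene, rose by 2.11 ± 0.27 (adjusted p = 0.00104), and RNF213, a ubiquitin ligase gene, by 0.82 ± 0.15 (adjusted p = 0.00995). With the block LGALS8, the gene of a lectin that marks damaged vacuoles, rose as well (0.34 ± 0.08, adjusted p = 0.00217). IL18, also a partner gene, fell in that fit (-0.37 ± 0.08, adjusted p = 0.00119). CASP4, the sensor of bacterial lipopolysaccharide, changed by 0.17 ± 0.15 and did not pass (adjusted p = 0.509). Its scores in treated clones were 207 and 225 in controls and 144 and 107 in IRF1-guide clones, a difference of -0.79 ± 0.21 that did not pass (adjusted p = 0.0774).

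Between the genotypes, the response was called as different at 2 of the 30 pathway peaks, and only with the clone as a block. Both calls went in the opposite direction from those of the cluster. The response was larger in IRF1-guide clones at MX1 (0.91 ± 0.17, SE, limma, adjusted p = 0.00663) and IRF9 (0.74 ± 0.18, adjusted p = 0.0414), where 0.106% of all peaks had a larger response. It was called smaller at none of the 30, where 0.657% of all peaks were. The untreated scores of both genes lay lower in IRF1-guide clones, MX1 at 79 and 63 against 202 and 127, and IRF9 at 102 and 104 against 210 and 139, with adjusted p = 0.112 and 0.25. With hIFNb the genotypes overlapped at IRF9, and at MX1 stood at 918 and 742 in control and 699 and 679 in IRF1-guide clones (-0.26 ± 0.24, adjusted p = 0.639). The median difference over the 30 peaks was 0.01, beside -0.81 in the cluster. Estimates that were not called went both ways, among them -0.92 ± 0.28 at SOCS1, -0.85 ± 0.41 at AIM2 and 1.04 ± 0.45 at TRIM21 (limma with the block, adjusted p = 0.13, 0.406 and 0.343).

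**Figure D4:**
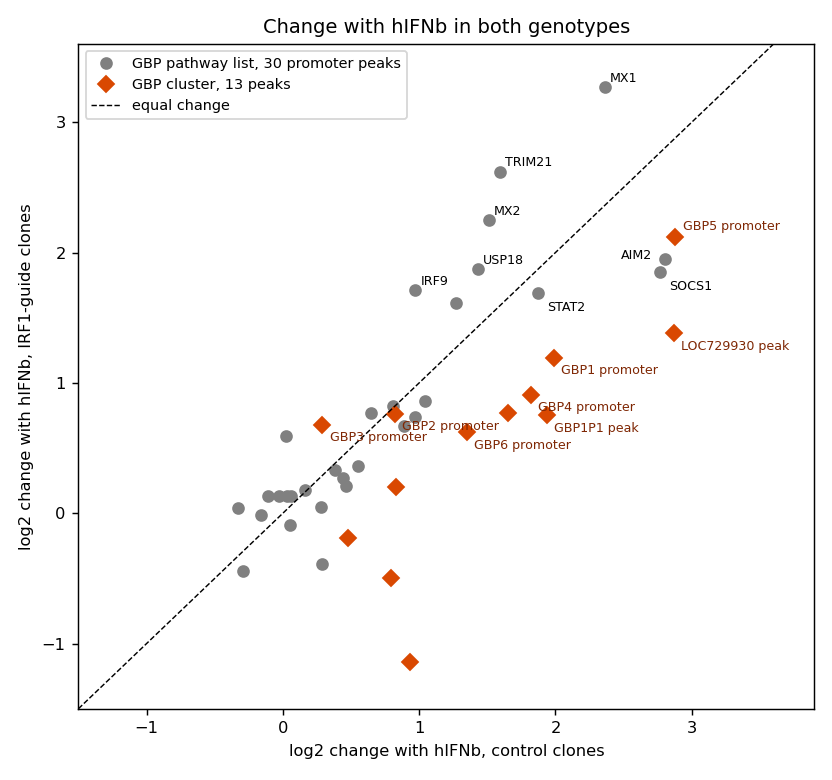
Log2 change with hIFNb in control clones (x axis) and IRF1-guide clones (y axis) at the 13 cluster peaks (diamonds) and the 30 peaks of the pathway list (circles), with a dashed line of equal change. MX1, at 2.36 and 3.27, lies above the line, and LOC729930, at 2.87 and 1.38, below it.

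Among peaks elsewhere in the genome that held a start site and had a mean score of at least 20 (9420 peaks), the 5 whose pattern was most like that of the GBP1 promoter were named for TNFRSF14-AS1, MIR155HG, LOC105373851, NSUN6 and TFG. Their Pearson r on the log2 scale over the 8 libraries was 0.991, 0.988, 0.986, 0.982 and 0.981. The libraries fall in 4 groups of 2, so that these values reflect mainly the group levels. At MIR155HG, the host gene of microRNA-155, the scores were 74 and 69 in untreated and 137 and 138 in treated control clones, and 57 and 65 in untreated and 91 and 95 in treated IRF1-guide clones. Its treated IRF1-guide libraries lay between untreated and treated controls, as at GBP1, a likeness for which this peak was picked. Within the cluster the r of GBP1 with GBP5, LOC729930, GBP1P1 and GBP2 was 0.972, 0.954, 0.971 and 0.969, and with GBP4 0.809 and GBP3 0.797.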

How the data were processed

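H3K27ac was measured by ChIP-seq (Abcam ab4729) in 4 clones with and without hIFNb. The submitters' processing notes name Bowtie2 and the build GRCh38 (hg38). Peak caller, counter and scaling were not given in the sources used here. Each deposited score is a read count per peak that the authors normalised and rounded, so a log-scale test was used. Distances to start sites are also the authors' deposited values.

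A group-means model of log2(score + 1) over 8 libraries and 31961 peaks was fitted in limma 3.58.1 (R 4.3.3) with trended variances and Benjamini-Hochberg adjustment. It was tested on simulated scores without clone effects, for the hIFNb response over all clones and no other contrast. The clone was used as a block in a second fit, since both libraries of a clone come from one cell line. Their deviations correlated across peaks at 0.437 in control and 0.392 in IRF1-guide clones. In the column headers clones 1 and 11 always end in R1 and clones 4 and 13 in R2. Within a genotype the clone and what this ending marks cannot be told apart. P-values of the group-means model rest on the spread between the clones of a group, pooled over the 4 groups. Those of the blocked fit rest on the spread of the response between the clones of a genotype, pooled over both genotypes. In both models limma moves the spread of a peak towards that of peaks with similar mean scores. A small p-value thus draws also on other peaks, and the SE of a response is the same in both genotypes. Each clone and treatment has 1 library, so the noise of single libraries enters both. Alternatives were another pseudocount, a minimum mean score, median-ratio scaling, no variance trend, only the groups of a contrast, and each library left out. All 13 members are reported. The members, gene lists, motifs and naming rules were chosen with earlier results of these data known. From the pathway list up to 3 called genes per contrast and direction were to be named by size, and the other pathway genes named here were chosen after their values were seen. A start site was placed by the authors' annotation or distances or by RefSeq. Values of some listed genes are not reported here.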

Additional observations from a re-analysis of the deposited data

Results flagged for a closer look

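At 2 peaks both control clones moved up with hIFNb and both IRF1-guide clones moved down. At the KYAT3 and RBMXL1 promoter the log2 change was 0.13 and 0.83 in control clones 1 and 4 and -0.28 and -0.11 in IRF1-guide clones 11 and 13, a difference of -0.67 ± 0.35 (SE, limma, adjusted p = 1, or 0.316 with the clone as a block). At the small peak beyond GBP1 the changes were 0.05, 1.81, -1.04 and -1.24, a difference of -2.07 ± 1.41 (adjusted p = 1, or 0.114 with the block). Scores there were as low as 1, in untreated control clone 4. Neither difference passed the test.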

How the results depend on the processing

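Of 78 results (13 peaks in 6 contrasts), 24 were called, and 10 of these calls held with each of the 8 libraries left out in turn. With the clone as a replicate block the count of called peaks was 9 in IRF1-guide clones and 2 for the difference in response. The block added 10 calls in all, took none away and changed no other cluster call, and no blocked fit of the genotype contrasts was possible because each clone has 1 genotype. In IRF1-guide clones the count was 1 with a pseudocount of 8, 1 without the mean-variance trend and 0 with only the groups of the contrast in the fit. Between treated genotypes it was 8, 2 and 7 in the same order. Over the whole table these fits called 404, 297 and 41 peaks in IRF1-guide clones, and 1354, 651 and 641 between treated genotypes. The main fit called 391 and 776. A block by the column ending of the headers (R1 or R2), chosen after seeing the data, gave 4 in IRF1-guide clones, and 1 and 8 between untreated and treated genotypes. Over the whole table it called 767, 403 and 1904 peaks in these contrasts. Leaving out 1 library gave 7 to 8 over all clones, 3 to 8 in control clones, 0 to 2 in IRF1-guide clones and 0 to 6 between treated genotypes, and 0 for the others. A minimum mean score of 10 took away 1 call and median-ratio scaling 2, all at the wide peak. Signs changed at 8 results that were not called, in 15 fits that left out 1 library: the ranges were -1.05 to 0.83 over all clones, -0.95 to 2.81 in control clones and -0.68 to 1.32 between treated genotypes at the GBP1 distal peak, and -0.06 to 0.35 over all clones at the narrow peak. Between untreated genotypes they were -0.58 to 0.01 at GBP1, -0.90 to 0.02 at GBP5 and -0.70 to 0.28 at GBP1P1, and the difference in response at GBP2 was -0.15 to 0.02. The cause was not tested. With 2 libraries per group, and read depths known only as estimates in 6 libraries, small changes in the faint peaks were not detectable.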
